A study of Mus musculus with 4 samples.

Results

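The replication-dependent histone genes are the clustered genes that supply histone protein for new chromatin. They were taken as every gene of the deposited count table whose GENCODE M21 symbol begins with Hist1h, Hist2h, Hist3h or Hist4h. The rule found 68 of the 45706 genes in the table, and it used no measured value. By the protein they encode, 6 are H1 linker histone genes, 20 are H2A, 17 are H2B, 12 are H3 and 13 are H4 genes. Among them, 3 are annotated as pseudogenes (Hist1h2aj, Hist1h2al and Hist3h2bb-ps). In the mm10 build, 54 lie on chromosome 13 (Hist1), 10 on chromosome 3 (Hist2), 3 on chromosome 11 (Hist3) and 1 on chromosome 6 (Hist4).

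H2A, H2B, H3 and H4 form the protein core around which DNA is wrapped, and H1 binds the DNA between cores. The clustered genes are transcribed mainly in S phase, when DNA is copied, under the control of NPAT. Their main transcripts have no introns and end, in place of a poly(A) tail, in a conserved stem-loop that is bound by SLBP and that directs their processing and decay. Longer polyadenylated transcripts of some of these genes are known from differentiated cells.

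The libraries were made from total RNA of the heart outflow tract, the vessel at the arterial pole of the embryonic heart, of C57BL/6 mouse embryos at embryonic day 12.5. In Sox17eKO embryos, Sox17, which encodes an endothelial transcription factor, was removed from aortic root endothelium through a Cre recombinase driven by an Nfatc1 enhancer, and the other group was wild type (WT). Each genotype had 2 libraries, and each library pooled the outflow tracts of 10 hearts, so that the p-values below measure the spread between 2 pools. Whether the RNA was selected for poly(A) tails, which would leave out transcripts that end in the stem-loop, is not given in the sources used here. The deletion was in endothelium, whereas the RNA came from all cells of the tissue, in which fewer cycling cells and less histone RNA per cell cannot be told apart.

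The capitals in the following sequences mark the paired bases of the stem-loop, and they are shown because this element sets the class apart from other genes. Each was read 5′ to 3′ on the gene's own strand from GENCODE M21 transcripts (mm10), for the highest-level H2B, H2A and H4 genes that carry one, an H1 gene and the H3 gene Hist1h3d.
Hist1h1c: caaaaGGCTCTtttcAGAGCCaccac
Hist2h2ac: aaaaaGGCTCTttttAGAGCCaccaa
Hist1h2bb: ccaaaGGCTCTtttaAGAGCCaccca
Hist1h3d: ccaaaGGCTCTtttcAGAGCCacccc
Hist1h4h: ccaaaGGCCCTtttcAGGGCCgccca
They lie at chr13:23739507-23739532 (plus strand) for Hist1h1c, chr3:96220413-96220438 (minus) for Hist2h2ac, chr13:23747198-23747223 (plus) for Hist1h2bb, chr13:23576239-23576264 (plus) for Hist1h3d and chr13:23531453-23531478 (plus) for Hist1h4h. A stem of 6 paired bases around a loop of 4, with the arm GGCTCT or GGCCCT and its complement, searched on the transcript's strand, was found in the annotated transcripts of 40 of the 68 genes. Over all 45143 genes with a symbol the same search found 44, which is 0.0975%. The 4 genes outside the family with a match were H2afx, an H2A gene outside the clusters, H2bfm, Trim17 and Gm20634. The last of these overlaps the H3 gene Hist2h3c1. The 9 H4 stem-loops all had the arm GGCCCT, whereas the 31 of H1, H2A, H2B and H3 genes all had the arm GGCTCT. For 28 genes no match was found, which says only that the letters are not in the annotated transcripts, several of which stop at the end of the coding sequence.

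Of the 68 genes, 63 have a single exonic block. The median exonic length of the 68 was 532 bases, against 3895 bases over all genes tested. The reads assigned to genes numbered 14306550 and 21883956 in Sox17eKO replicates 1 and 2, against 12880081 and 8113463 in WT replicates 1 and 2. Histone genes took 0.692% and 0.695% of them in the Sox17eKO libraries, against 0.706% and 0.840% in the WT libraries. Sox17 had 2.76 and 2.82 CPM (reads relative to library size, scaled by the TMM method) in Sox17eKO libraries, against 6.05 and 6.83 CPM in WT libraries, so the targeted gene followed the labels (log2 fold change -1.19, standard error 0.23, edgeR adjusted p = 0.00574). Without WT replicate 2 its edgeR adjusted p was 0.0786. Markers of cardiomyocytes, smooth muscle, endothelium and mesenchyme were all detected. Reads outside annotated features made up 34.1% and 29.5% of uniquely placed reads in Sox17eKO libraries, against 22.2% and 20.4% in WT libraries.

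The H4 genes carried the most assigned histone reads, and the few H1 genes the next largest share. Summed over libraries, H4 made up 30.3% of histone CPM and the 6 H1 genes 24.5%. Non-unique alignments were not assigned to genes. The share of 50-base stretches found in no transcript of another locus, described below, differed between families. Its median was 98.9% in H1, 60.5% in H4, 55.9% in H2B, 42.8% in H3 and 26.8% in H2A. How far this set the family shares of reads was not tested. Per kb of exonic length, the 60 histone genes that passed the filter on low counts ranged from 2.17 to 602 CPM per kb (mean over the 4 libraries) with a median of 143. The highest was Hist1h4k, with 613 and 643 CPM per kb in Sox17eKO libraries, against 636 and 515 CPM per kb in WT libraries. Hist1h4h, the next H4 gene, had 579 and 482 CPM per kb in Sox17eKO libraries, against 565 and 713 CPM per kb in WT libraries. These 2 H4 genes had overlapping levels, and so did both genotypes in each.

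Among the H2B genes, which encode a partner of H2A in the core, Hist1h2bb led with 539 and 479 CPM per kb in Sox17eKO libraries, against 526 and 663 CPM per kb in WT libraries. Hist1h2bn followed at 429 and 384 CPM per kb in Sox17eKO libraries, against 393 and 522 CPM per kb in WT libraries. In both H2B genes WT replicate 2 was the highest library. Per kb, the highest H1 genes were Hist1h1a and Hist1h1b. Hist1h1a had 470 and 448 CPM per kb in Sox17eKO libraries, against 496 and 518 CPM per kb in WT libraries. Hist1h1b had 421 and 450 CPM per kb in Sox17eKO libraries, against 474 and 486 CPM per kb in WT libraries. This order depends on annotated lengths of 741 and 743 bases, against 1560 in Hist1h1c and 7425 in Hist1h1d. In CPM, Hist1h1c (means of 365 in Sox17eKO and 407 in WT) and Hist1h1d (352 and 422) were higher than Hist1h1a (340 and 376) and Hist1h1b (324 and 357). In the H2A family, Hist1h2ak and Hist2h2ac led with means of 307 and 297 CPM per kb. In the H3 family, Hist1h3h and Hist1h3e led with means of 277 and 248 CPM per kb. Within each of these pairs the 4 libraries of the neighbouring genes overlapped.

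**Figure D1:**
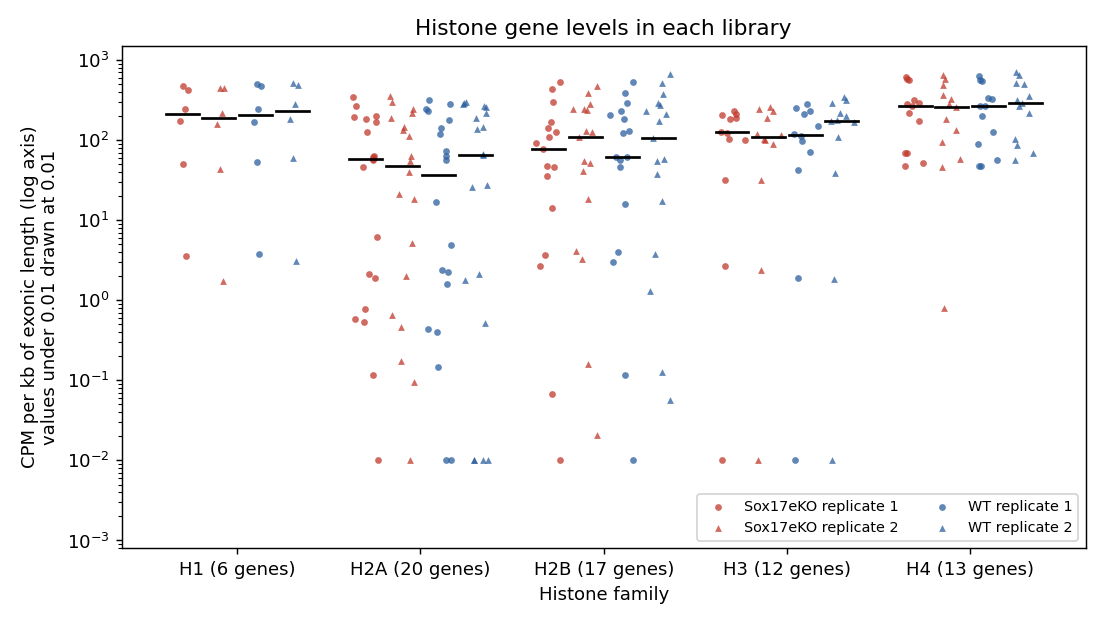
Level of each of the 68 histone genes in each library, in CPM per kb of exonic length on a log axis, by family, with the median as a bar. Genes of a family spread most widely in H2A, H2B and H3, each with a copy at the floor of the axis, and the H4 medians were the highest in every library.

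The testis-type genes were near the floor. Hist1h2aa, the testis H2A gene, had 3 and 4 reads in Sox17eKO libraries, against 2 and 0 reads in WT libraries. Hist1h2ba, its H2B partner, had 1.03 and 1.59 CPM in Sox17eKO libraries, against 1.16 and 0.506 CPM in WT libraries. Hist1h1t, the testis linker histone gene, had 3.24 and 1.59 CPM in Sox17eKO libraries, against 3.41 and 2.78 CPM in WT libraries. The libraries of both genotypes overlapped for Hist1h2ba and Hist1h1t, and neither passed the test (edgeR adjusted p = 0.508 and 0.49).

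Most histone genes had somewhat lower fitted levels in Sox17eKO than in WT outflow tracts, but few passed the test. At an edgeR adjusted p under 0.05 (quasi-likelihood test, Benjamini-Hochberg over the 16570 genes tested), 5 of the 60 tested histone genes were lower and 1 was higher. The lower calls were the H3 genes Hist2h3b, Hist1h3d and Hist1h3h, the H2A gene Hist1h2ai and the H4 gene Hist1h4b, and the higher call was the H2A gene Hist1h2ak. Of all genes tested, 5.35% were called, 1.22% lower and 4.13% higher, so that the 5 lower calls were 8.33% of the histone genes. The fitted log2 fold change was below 0 in 50 of the 60 genes (83.3%), against 51.8% of all genes tested, and its median was -0.18, against -0.01 over all genes tested. Both Sox17eKO libraries lay below both WT libraries in 18 of the 60 genes (30%), against 26.2% of all genes tested. Both lay above in 2 histone genes (3.33%), Hist1h2ak and Hist2h3c2, against 26.5% of all genes tested. The 95% interval lay within a 2-fold change in either direction in 40 of the 60 genes.

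The counts of calls rested on single libraries. Without WT replicate 2, the shallowest library, 0 histone genes were called lower by edgeR, 7 had an unadjusted p under 0.05, and the median log2 fold change was -0.05. Without WT replicate 1, 16 were called lower and 0 higher, and the median was -0.27. WT replicate 2 was the highest of the 4 libraries in 40 of the 60 tested histone genes, against 32.4% of all genes tested.

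**Figure D2:**
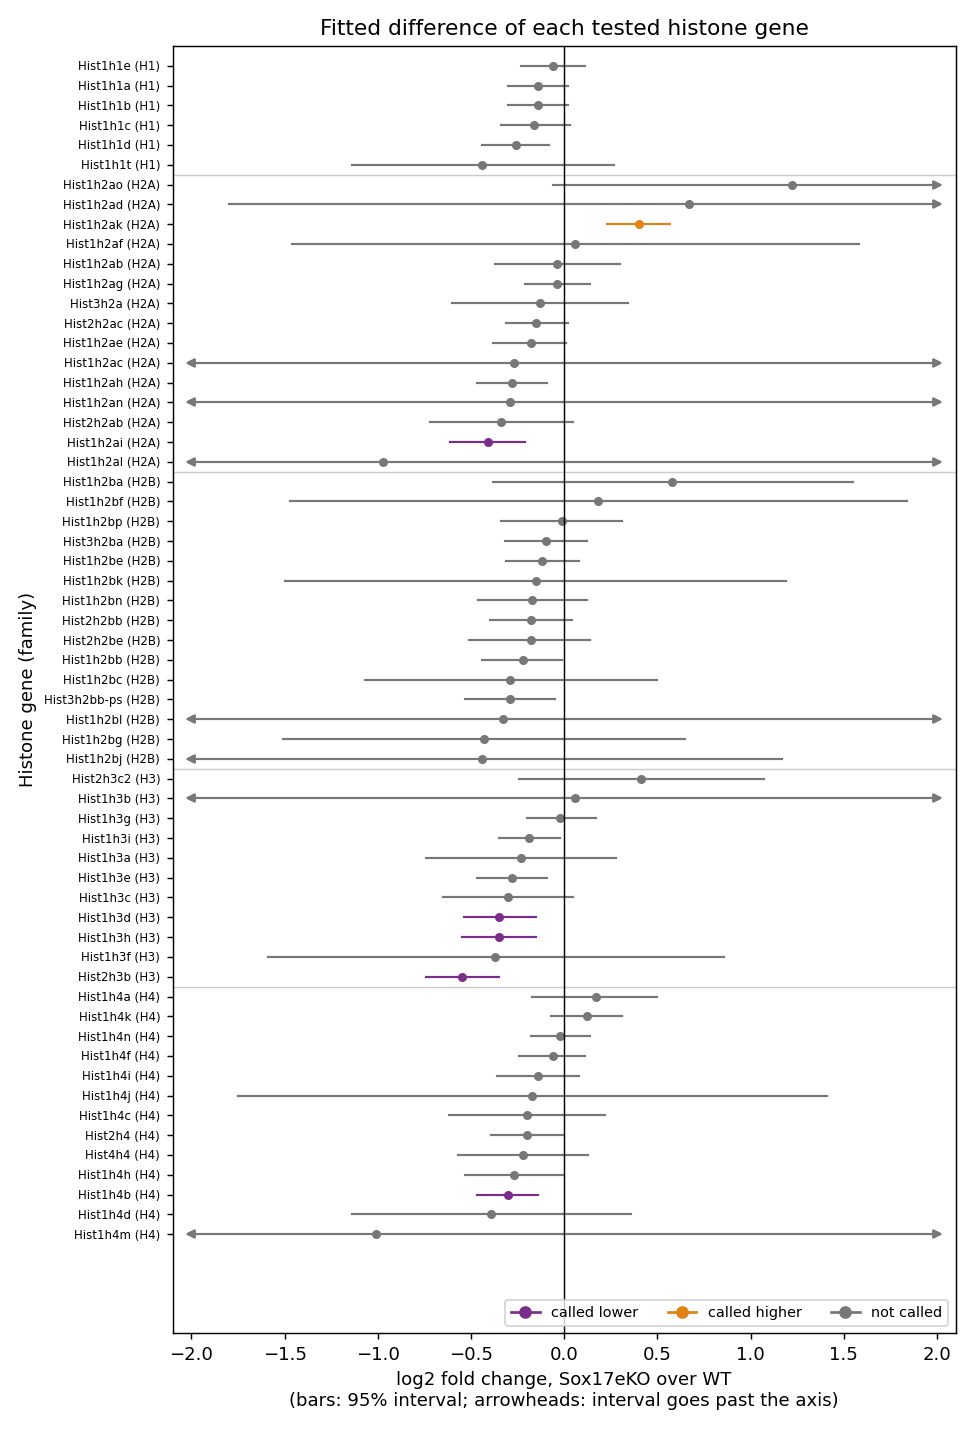
Fitted log2 fold change of Sox17eKO over WT for each of the 60 tested histone genes, by family, with its 95% interval. Of the points, 50 lie below 0, and the intervals of 5 lower calls (purple) and 1 higher call (orange) exclude 0.

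Hist2h3b, an H3 gene at chr3:96268654-96269141 (plus strand, ENSMUSG00000074403, a single exon), had the lowest fitted ratio among the called histone genes. It had 48.8 and 56.9 CPM in Sox17eKO libraries, against 73.1 and 82.1 CPM in WT libraries. Both Sox17eKO libraries lay below both WT libraries, and the fitted Sox17eKO level was 68.5% of the WT level (log2 fold change -0.55, standard error 0.09, edgeR adjusted p = 0.00231). These values rested on 707 and 1251 reads in Sox17eKO libraries, against 943 and 649 reads in WT libraries. The call held under 14 of 16 alternatives; it was lost without WT replicate 2 and when a trend on gene length was removed. The exon is covered in full by exons of the antisense gene Gm20628 on the minus strand. Gm20628 was itself given 100 and 118 reads in Sox17eKO libraries, against 90 and 46 reads in WT libraries. Among the other called genes, exons on the opposite strand covered 56.2% of Hist1h4b and 35.1% each of Hist1h2ai and Hist1h2ak. In Hist1h3d and Hist1h3h this share was 0%.

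Hist1h3d, a further H3 gene at chr13:23575763-23577011 (plus strand, ENSMUSG00000099583), had 39.8 and 40.1 CPM in Sox17eKO libraries, against 53.0 and 48.2 CPM in WT libraries. The Sox17eKO libraries differed little from each other and lay below both WT libraries (log2 fold change -0.35, standard error 0.09, edgeR adjusted p = 0.0327). Of the lower calls, Hist1h3d had the most distinct sequence, as given below, but its call was lost in each of the 4 fits that left out 1 library. It held under 7 of the 16 alternatives and was also lost with library size only, DESeq2, limma-voom, no robust option and the length trend removed. Hist1h3h, at chr13:21717659-21718069 (plus strand, ENSMUSG00000101355), had 93.9 and 106 CPM in Sox17eKO libraries, against 115 and 141 CPM in WT libraries. In each genotype the pools of Hist1h3h lay further apart than the nearest libraries of the genotypes. The groups did not overlap (log2 fold change -0.35, standard error 0.09, edgeR adjusted p = 0.0434), and the call held in 2 of the 4 fits with 1 library left out. It held under 9 of the 16 alternatives and was also lost with library size only, limma-voom, no robust option and the length or GC trend removed.

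Hist1h4b, an H4 gene at chr13:23757013-23757409 (plus strand, ENSMUSG00000069266), had 114 and 104 CPM in Sox17eKO libraries, against 128 and 141 CPM in WT libraries. Its Sox17eKO libraries lay below both WT libraries (log2 fold change -0.30, standard error 0.08, edgeR adjusted p = 0.0329). Hist1h2ai, an H2A gene at chr13:21716422-21716814 (plus strand, ENSMUSG00000071516), had 77.2 and 74.8 CPM in Sox17eKO libraries, against 89.5 and 113 CPM in WT libraries. The gap between its WT libraries was wider than the gap between the genotypes at their nearest libraries (log2 fold change -0.41, standard error 0.10, edgeR adjusted p = 0.0196). Each of these 2 calls held in 1 of the 4 fits with 1 library left out, the one without WT replicate 1. Over the 16 alternatives, the call of Hist1h4b held under 8 and that of Hist1h2ai under 10. Both were lost with limma-voom and with the length or GC trend removed, and Hist1h4b also with library size only and no robust option.

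Hist1h2ak was the only histone gene called higher. It lies at chr13:21753435-21753827 on the minus strand (ENSMUSG00000063021) and had 136 and 138 CPM in Sox17eKO libraries, against 96.0 and 112 CPM in WT libraries. Both Sox17eKO libraries lay above both WT libraries, and the fitted Sox17eKO level was 132% of the WT level (log2 fold change 0.40, standard error 0.08, edgeR adjusted p = 0.00821). The values rested on 1977 and 3033 reads in Sox17eKO libraries, against 1238 and 888 reads in WT libraries. The call held under 15 of 16 alternatives and was lost without WT replicate 1, where the log2 fold change was 0.29. With the length trend removed, it was 0.63 (edgeR adjusted p = 0.000105).

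Hist1h2ai and Hist1h2ak encode the same kind of protein and moved in opposite directions, and their coding sequences differ at 10 of 393 positions. The first 60 coding bases are shown because reads within the coding sequence can be told apart only where such differences fall. Capitals mark the bases at which each differs from the other of the pair.
Hist1h2ak: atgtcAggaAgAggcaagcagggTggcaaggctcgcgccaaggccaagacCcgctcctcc
Hist1h2ai: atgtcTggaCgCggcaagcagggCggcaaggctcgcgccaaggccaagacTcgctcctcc
The windows are chr13:21753768-21753827 (minus strand) for Hist1h2ak and chr13:21716422-21716481 (plus strand) for Hist1h2ai in mm10, and 5 of the 10 differences fall in them. Among the H2A genes with a single annotated coding sequence of 393 bases, not all members of the family, Hist1h2ad and Hist1h2ag were nearest to Hist1h2ai, with 5 differences each. Hist1h2ag had 61.9 and 70.5 CPM in Sox17eKO libraries, against 68.4 and 67.6 CPM in WT libraries. Hist1h2ad had 26.1 and 12.2 CPM in Sox17eKO libraries, against 9.54 and 14.7 CPM in WT libraries. In both genes the genotypes overlapped.

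The H1 genes had standard errors of 0.08 to 0.09 on the log2 scale, apart from Hist1h1t at 0.34. All 6 had a fitted log2 fold change below 0, with a median of -0.15, and 0 of 6 were called. Hist1h1d came closest, with 378 and 327 CPM in Sox17eKO libraries, against 398 and 445 CPM in WT libraries (log2 fold change -0.26, 95% interval -0.44 to -0.08, edgeR adjusted p = 0.0882). Hist1h1a had 349 and 332 CPM in Sox17eKO libraries, against 368 and 384 CPM in WT libraries. Hist1h1b had 313 and 334 CPM in Sox17eKO libraries, against 352 and 361 CPM in WT libraries. In these 3 genes both Sox17eKO libraries lay below both WT libraries. Hist1h1c had 385 and 345 CPM in Sox17eKO libraries, against 377 and 437 CPM in WT libraries, and Hist1h1e had 338 and 308 CPM in Sox17eKO libraries, against 321 and 353 CPM in WT libraries. The libraries of both genotypes overlapped in Hist1h1c and Hist1h1e, and the 95% interval of Hist1h1e ran from -0.23 to 0.11 on the log2 scale.

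The core families had medians below 0 in the fit of all 4 libraries. In H2A, 15 of 20 genes were tested, 1 was called higher and 1 lower, and the median log2 fold change was -0.15. In H2B, 15 of 17 were tested, 0 were called and the median was -0.18. In H3, 11 of 12 were tested, 3 were called lower and the median was -0.28. In H4, all 13 were tested, 1 was called lower and the median was -0.20. Each median moved with the WT libraries. Without WT replicate 1 the medians were -0.22 in H1, -0.21 in H2A, -0.36 in H2B, -0.49 in H3 and -0.32 in H4. Without WT replicate 2 they were -0.12 in H1, 0.12 in H2A, -0.05 in H2B, -0.06 in H3 and -0.02 in H4. Whether the families differed from each other was not tested.

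Summed over its genes, each family had its highest value in WT replicate 2. H3 summed to 958.7 and 931.2 CPM in Sox17eKO libraries, against 986.3 and 1302 CPM in WT libraries. H4 summed to 2089 and 2093 CPM in Sox17eKO libraries, against 2110 and 2629 CPM in WT libraries. H2B summed to 1201 and 1362 CPM in Sox17eKO libraries, against 1341 and 1665 CPM in WT libraries. In H3 and H4 the WT libraries lay apart by more than WT replicate 1 lay from either Sox17eKO library, and in H2B the genotypes overlapped. All 68 genes together averaged 6869 ± 62.6 CPM in Sox17eKO and 7838 ± 1113 CPM in WT (SD, n = 2 pools each). The difference between these means was smaller than the SD of the WT pools.

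Calls fell in more than one cluster. The main Hist1 stretches on chromosome 13 run from 21715763 to 22043676 and from 23531050 to 23934851. In the first, 19 of 23 genes were tested, 2 were lower and 1 higher, and the median log2 fold change was -0.17. In the second, 29 of 30 were tested, 2 were lower, and the median was -0.20. Of the 10 genes of the Hist2 cluster at chr3:96219865-96270132, 7 were tested, 1 was lower, and the median was -0.18.

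Genes for H2A and H2B often stand head to head and share the sequence between their starts. There were 13 such pairs with starts at most 1000 bases apart (173 to 306 bases), and all joined an H2A with an H2B gene. A fitted value below 0 was found in 83.3% of all tested histone genes, paired or not. Of the 10 pairs with both genes tested, 8 had both fitted values below 0, 1 had both above 0 and 1 had opposite signs. The last was Hist1h2ak, called higher, and Hist1h2bn, whose starts lie 296 bases apart. Hist1h2bn had 163 and 146 CPM in Sox17eKO libraries, against 150 and 199 CPM in WT libraries, and the genotypes overlapped (log2 fold change -0.17, edgeR adjusted p = 0.499). Without WT replicate 1, Hist1h2bn was called lower (log2 fold change -0.36). Hist1h2ai, called lower, stands 279 bases from Hist1h2bl (log2 fold change -0.33, edgeR adjusted p = 0.85).

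The promoter window of Hist1h2ak is shown because the fitted sign of this gene was opposite to that of Hist1h2bn, whose start lies inside the window, and that of Hist1h2ai because it was the H2A gene called lower. Capitals mark the motif CCAAT, read on either strand, and the motif TATAAA. Each window runs from 250 bases before to 50 bases after the RefSeq start (GRCm38.p6), 5′ to 3′ on the gene's strand.
Hist1h2ak: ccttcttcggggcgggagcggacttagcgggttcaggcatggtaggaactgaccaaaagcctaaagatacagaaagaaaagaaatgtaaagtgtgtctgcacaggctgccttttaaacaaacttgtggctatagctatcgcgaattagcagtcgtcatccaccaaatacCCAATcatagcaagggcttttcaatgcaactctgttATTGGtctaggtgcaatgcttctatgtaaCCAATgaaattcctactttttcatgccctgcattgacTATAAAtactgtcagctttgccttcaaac
Hist1h2ai: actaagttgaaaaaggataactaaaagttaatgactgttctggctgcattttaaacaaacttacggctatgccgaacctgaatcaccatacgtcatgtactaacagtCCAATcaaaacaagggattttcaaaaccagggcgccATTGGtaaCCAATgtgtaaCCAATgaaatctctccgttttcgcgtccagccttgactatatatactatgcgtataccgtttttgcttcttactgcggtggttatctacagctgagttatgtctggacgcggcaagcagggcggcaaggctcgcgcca
The windows are chr13:21753863-21754162 (minus strand) for Hist1h2ak and chr13:21716162-21716461 (plus strand) for Hist1h2ai. Each held 4 motif matches, of which 3 were CCAAT on either strand and 1 was TATAAA in Hist1h2ak, and all 4 were CCAAT on either strand in Hist1h2ai.

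Promoter windows of this kind were matched to 60 of the 68 genes by gene ID, and each motif was searched on both strands. Windows of head-to-head genes overlap, so their matches are partly shared. CCAAT was found in 51 of 60 (85%), against 37.4% of all 32851 windows. It was in every matched window of H1 (6), H2A (18), H2B (14) and H3 (10) genes, and in 3 of 12 H4 windows. TATAAA was found in 35 of 60 (58.3%), against 13.6% of all windows. The octamer ATTTGCAT was found in 12 of 60 (20%), against 1.74% of all windows, and these were 7 H2A and 5 H2B genes. AAACACA, known from H1 promoters, was found in 8 of 60 (13.3%), against 7.18% of all windows, and 5 of the 8 were H1 genes. A match is a description of the letters in a window and not a measured site.

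Many histone genes have near-identical copies. For each gene, the share of 50-base stretches of its exons that occur in no transcript of another locus was computed from the GENCODE M21 transcripts. The share was under 25% in 19 genes, 25% to 75% in 29 and at least 75% in 20. Non-unique alignments made up 72.5% to 79.0% of their sum with gene reads, ambiguous reads and reads outside features, highest in WT replicate 2. They were not assigned to genes. Among the called genes, the share was 6.08% for Hist1h3h, 9.88% for Hist1h2ai, 20.3% for Hist2h3b, 45.4% for Hist1h4b, 47.7% for Hist1h2ak and 75.2% for Hist1h3d. The values of the first 3 are therefore uncertain, since reads that match several copies were not assigned to any of them. With 100-base stretches, the share for Hist1h2ak was 89.5%.

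Of the 19 genes under 25%, 13 were tested, 3 were called lower and the median log2 fold change was -0.28. Of the 20 genes at 75% or more, 19 were tested and 1 was called lower. In these 19, the fitted log2 fold change was below 0 in all, from -0.44 to -0.06, with a median of -0.18. That median equals the median of all 60 tested genes. With a trend on gene length removed, as described below, these 19 genes lay on both sides of 0, from -0.31 (Hist1h1d) to 0.11 (Hist3h2ba). How far near-identical sequence set the fitted values was not tested.

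**Figure D3:**
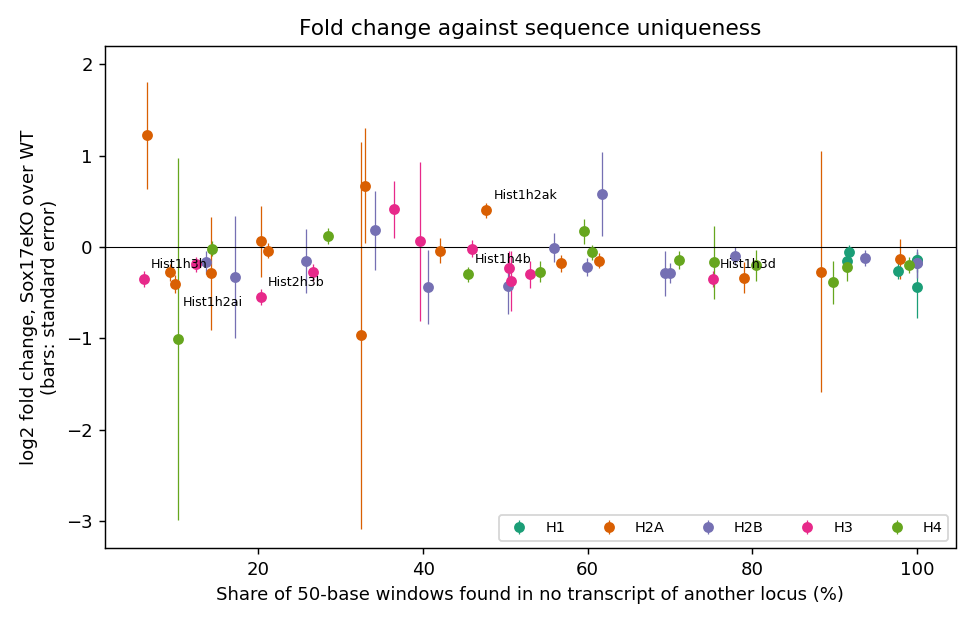
Fitted log2 fold change (Sox17eKO over WT, bars: standard error) of the 60 tested histone genes against the share of 50-base windows found in no transcript of another locus. At 75% and over, all 19 genes lie between -0.44 and -0.06, and the widest bars belong to genes at lower shares, with Hist1h2ac at 88.4% as an exception.

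Low counts and near-identical sequence went together in several genes. The 8 histone genes that did not pass the filter had at most 7 reads in any library, and 6 of them had a share under 25%. Hist2h2aa1 and Hist2h2aa2, adjacent H2A copies on chromosome 3, had shares of 3.72% and 0%, and at most 1 and 6 reads. Exons of other genes also covered 90.3% of Hist2h2aa1 on its own strand, and 100% of each copy on the opposite strand. Hist1h2ap, Hist1h2bq and Hist1h2br had shares of 6.93%, 2.68% and 11.3%. Hist2h3c1, with a share of 65.3%, was at 0 reads in all 4 libraries, and its exons lie within those of Gm20634 on the same strand. Hist1h2aa had a share of 97.7% and at most 4 reads. A low share did not always come with few reads, since Hist1h3h and Hist1h2ah (9.27%) had over 800 reads in every library.

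Several histone genes differed more between the 2 pools of 1 genotype than between the genotypes. Among tested genes, 9 of 60 histone genes (15%) had pools of a genotype more than 2-fold apart in CPM, against 4.85% of all genes tested. Where the mean was 10 CPM or more, 6 of 54 histone genes (11.1%) did so, against 28 of 10332 other genes (0.271%). These 6 were singled out after their values were seen. Hist1h2al, an H2A pseudogene at chr13:51202727-51203065, far from the other Hist1 genes, had 21.7 and 21.5 CPM in Sox17eKO libraries, against 0.543 and 89.6 CPM in WT libraries. Its WT pools lay on either side of the Sox17eKO pools, and its call without WT replicate 1 was lower (log2 fold change -2.05) and without WT replicate 2 higher (5.29).

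Hist1h4m, an H4 gene, had 28.1 and 0.318 CPM in Sox17eKO libraries, against 18.9 and 35.4 CPM in WT libraries. Only Sox17eKO replicate 2 was near the floor, with 7 reads in the deepest library. Hist1h2ac, an H2A gene with a long annotated transcript, had 15.4 and 45.9 CPM in Sox17eKO libraries, against 12.1 and 67.6 CPM in WT libraries. Hist1h3b, an H3 gene, had 117 and 55.3 CPM in Sox17eKO libraries, against 44.0 and 124 CPM in WT libraries. In Hist1h2ac replicate 2 was the higher pool in both genotypes, and in Hist1h3b the higher pool was replicate 1 in Sox17eKO and replicate 2 in WT. Hist1h2bl, an H2B gene, had 35.5 and 94.3 CPM in Sox17eKO libraries, against 77.5 and 89.3 CPM in WT libraries, and Hist1h2ad is given above. None of the 6 was called in the fit of all 4 libraries. Without Sox17eKO replicate 2, Hist1h2bl was called lower (log2 fold change -1.23) and Hist1h2ad higher (1.15). What set these pools apart was not tested.

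**Figure D4:**
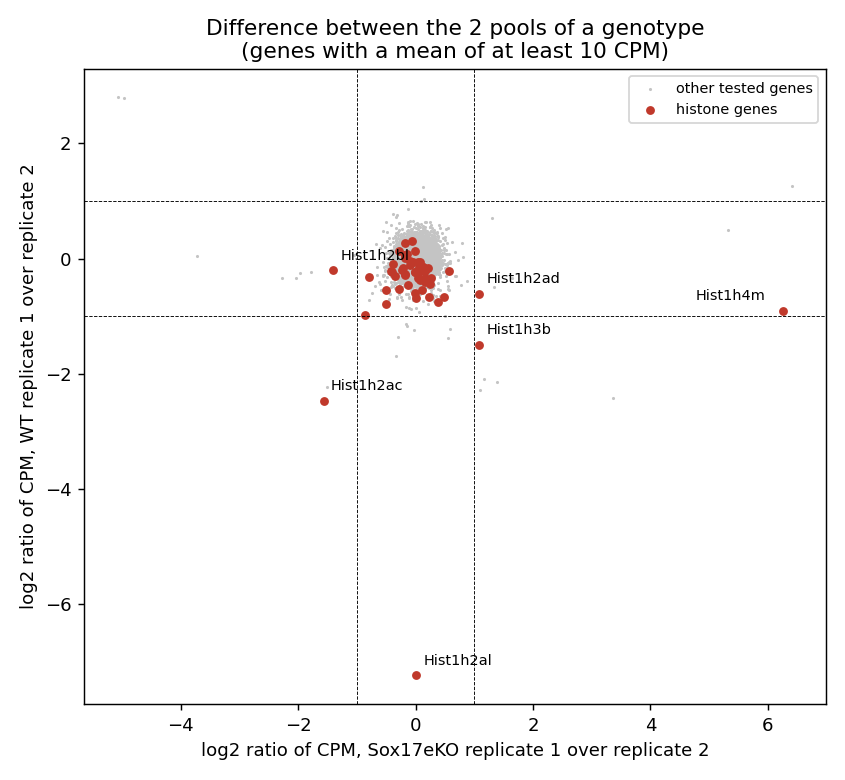
Log2 ratio of CPM between replicates 1 and 2 of Sox17eKO (x axis) and of WT (y axis) for tested genes that averaged 10 CPM or more, with lines at a 2-fold difference. Of the histone genes (red), 6 of 54 lie outside the lines, among them Hist1h4m along the Sox17eKO axis and Hist1h2al along the WT axis.

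Short genes in general had lower fitted values in Sox17eKO, and the histone genes are short. Among other protein-coding genes, the median log2 fold change was -0.206 at up to 500 bases of exonic length (21 genes) and -0.194 at 501 to 1000 bases (213 genes). For histone genes it was -0.18 at up to 500 bases (25 genes) and -0.147 at 501 to 1000 bases (19 genes). At 1001 to 2000 bases the median was -0.243 over 8 histone genes and -0.148 over 1314 other genes. It was -0.203 over 4 histone genes and -0.0823 over 3976 other genes at 2001 to 4000 bases, and -0.189 over 2 histone genes and 0.00938 over 5240 other genes at 4001 to 8000 bases. The histone median was thus slightly above that of other genes in the first 2 bins, which hold most histone genes, and below it in the next 3. Over 8000 bases, where there was no histone gene, the median of the other genes was 0.161.

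With a smooth trend of each library on length removed, in the 13361 protein-coding genes, 0 of 58 histone genes were called lower by edgeR (2 at an unadjusted p under 0.05) and 1 was called higher, Hist1h2ak. Of all these genes 0.15% were then called lower and 0.599% higher. The fitted value was below 0 in 27 of the 58 histone genes, and the median was 0.00, against 0.01 over all 13361. Such a correction also takes away a genotype effect that follows length. How much of the lower histone values goes with length and how much with genotype cannot be told apart.

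**Figure D5:**
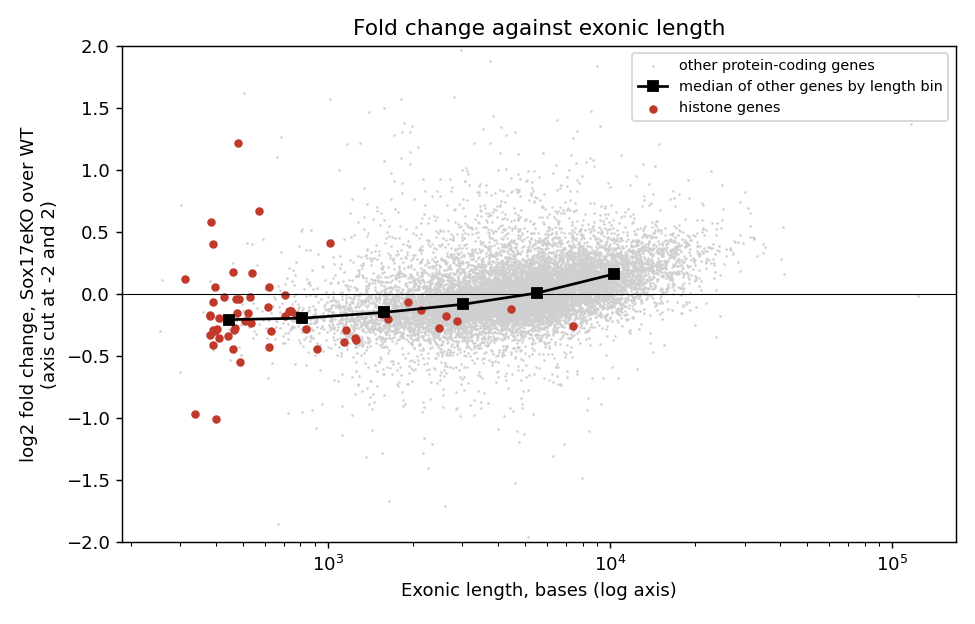
Fitted log2 fold change (Sox17eKO over WT) against exonic length on a log axis for other protein-coding genes (grey), with their median by length bin (black), and for histone genes (red). The black line climbs from -0.206 at up to 500 bases to 0.161 over 8000 bases, and most histone genes lie at the short end.

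Genes that act on the clustered histone genes or their RNA did not pass the test. Of 20 tested genes for histone transcription and RNA processing, 0 were called by edgeR and the median log2 fold change was -0.05. Slbp, which encodes the stem-loop binding protein, had 69.2 and 64.4 CPM in Sox17eKO libraries, against 69.5 and 66.9 CPM in WT libraries (log2 fold change -0.03, 95% interval -0.20 to 0.14, edgeR adjusted p = 0.862). Npat, which encodes the activator of histone transcription, had 72.3 and 73.4 CPM in Sox17eKO libraries, against 69.5 and 57.6 CPM in WT libraries. The Npat libraries of Sox17eKO lay above both WT libraries, with an edgeR adjusted p of 0.234.

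Of 27 genes of S phase and DNA replication, 0 were called and 22 had a fitted value below 0, with a median of -0.11. Their summed level was 2330 and 2450 CPM in Sox17eKO libraries, against 2513 and 2649 CPM in WT libraries, with the highest value in WT replicate 2, as for the histone genes. Of 14 mitosis genes, 1 was called, Cenpf, a kinetochore gene, with 285 and 292 CPM in Sox17eKO libraries, against 243 and 205 CPM in WT libraries (log2 fold change 0.37, edgeR adjusted p = 0.0177). The median of the mitosis genes was -0.09.

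Of 11 tested histone genes outside the clusters, listed as replication-independent, 10 had a fitted value below 0 and the median was -0.15. The list includes H2afx, in which the stem-loop was found, so the label may not hold for every member. H3f3a, which encodes a replacement H3, had 102 and 104 CPM in Sox17eKO libraries, against 123 and 131 CPM in WT libraries (log2 fold change -0.30, edgeR adjusted p = 0.0259), and was the only one called. Of 17 histone chaperone and histone acetyltransferase genes, 2 were called. Atrx, a chromatin remodeller that works with a replacement-H3 chaperone, had 489 and 463 CPM in Sox17eKO libraries, against 391 and 357 CPM in WT libraries (log2 fold change 0.35, edgeR adjusted p = 0.0162). Hat1, which acetylates newly made H4, had 78.4 and 78.4 CPM in Sox17eKO libraries, against 95.3 and 94.9 CPM in WT libraries (log2 fold change -0.28, edgeR adjusted p = 0.0401). With the length trend removed, none of H3f3a, Atrx, Hat1 and Cenpf passed the test (edgeR adjusted p = 0.156, 0.787, 0.287 and 0.352). With 1 library left out, the calls of H3f3a and Cenpf were kept only without WT replicate 1, that of Atrx without WT replicate 1 or Sox17eKO replicate 2, and that of Hat1 in none of the 4 fits.

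Erythroid genes mark blood in the pools. All 9 had a fitted value below 0, with a median of -0.52, and their summed level was 1751 and 2204 CPM in Sox17eKO libraries, against 2551 and 3203 CPM in WT libraries. Only Hbb-y, an embryonic globin gene, was called (log2 fold change -0.56, edgeR adjusted p = 0.0288), and of the fits with 1 library left out it was called only without Sox17eKO replicate 2. Its call was also lost with DESeq2 (adjusted p = 0.0926), in the edgeR fit of protein-coding genes only (adjusted p = 0.0528) and with the length or GC trend removed (edgeR adjusted p = 0.283 and 0.278). None of the 9 was at 0 reads in all libraries. The part of the blood in the histone values was not tested. Of the 3 mesenchyme markers, Pdgfra was called higher (log2 fold change 0.32, edgeR adjusted p = 0.0401), a call kept only without WT replicate 1 when 1 library was left out. It was also lost with the length trend removed (edgeR adjusted p = 0.217), with limma-voom (adjusted p = 0.0601) and with no robust option (edgeR adjusted p = 0.0741). The liver markers summed to 5.10 and 117 CPM in Sox17eKO libraries, against 66.3 and 10.6 CPM in WT libraries. The cardiomyocyte, smooth muscle, endothelial, macrophage and neural crest markers had 0 calls.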

How the data were processed

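RNA was sequenced from 4 libraries, 2 Sox17eKO and 2 WT, from total RNA isolated with TRIzol and strand-specific Illumina libraries (labels' protocols). The deposited values are the authors' raw counts of reads for each Ensembl gene, without normalization. Tools named are TopHat2 and HTSeq, with mm10 as the build, per the submitters' processing notes. Their versions, the annotation release and whether strand was used in counting are not given in the sources used here. Without the strand setting, reads of overlapping antisense genes may not have been told apart. Groups came from the sample titles.

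Counts were tested with edgeR 4.0.16 in R 4.3.3 (quasi-likelihood, robust, TMM, genotype alone in the model) on 16570 genes left by filterByExpr, without the 5 HTSeq summary rows, with Benjamini-Hochberg adjustment over all of them and a threshold of 0.05. The biological coefficient of variation was 0.0791. Pools of a genotype differed beyond sampling noise, with a chi-square of 6.7 (Sox17eKO) and 4.96 (WT) over its degrees of freedom. Levels are TMM-scaled CPM, and per kb of GENCODE M21 exonic length where genes are compared. Between pools, ratios used CPM + 0.05. Depth per library is given with the results, and the 68 genes held 410039 reads in all.

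Sequence uniqueness was computed against annotated transcripts, not the genome, so copies outside annotated transcripts were not seen. In simulated counts for the 16570 genes with 200 changed, 42.3% of genes changed 1.5-fold, 83.3% changed 2-fold and 94.0% changed 4-fold were called, and 5.41% of calls were false. The simulated spread followed only the fitted trend of variation with level. It held no trend on gene length and no single genes with pools far apart, so these shares may not hold for the histone genes. Alternatives used DESeq2 1.42.0, limma-voom (limma 3.58.1), other scalings and filters, trends on length or GC removed with mgcv 1.9.3, the replicate number as a block, and each library left out in turn on the same genes.

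The text names every called histone gene, the 2 highest per family by CPM per kb, all tested H1 genes, the testis-type genes, Sox17, Slbp, Npat and called members of the other lists. The pairs and other genes named beside them were chosen after their values were seen. The histone genes and the gene lists were chosen with earlier results of these data known.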

Additional observations from a re-analysis of the deposited data

How the results depend on the processing

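The number of histone genes called lower was 5 with TMM and edgeR. It was 2 with library size only, 1 with limma-voom, 2 without the robust option, 11 without the filter, 0 with the length trend removed and 3 with the GC trend removed. With 1 library left out it ranged from 0 to 16, with the lone library of a genotype assumed to vary like the others. The number called higher, 1, ranged from 0 to 2 with 1 library left out and was 1 otherwise. Over all genes, the 202 lower calls became 111 with library size only, 109 with DESeq2, 96 with limma-voom, 105 without the robust option, 387 without the filter and 20 with the length trend removed, and 13 to 329 with 1 library left out. The 684 higher calls became 300 with DESeq2, 421 with limma-voom and 80 with the length trend removed, and 90 to 641 with 1 library left out.

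The replicate numbers were not shown to pair the pools: the correlation of same-numbered deviations was -0.0428. With the replicate number as a block, 12 histone genes were lower and 1 higher, and 577 genes were lower and 1107 higher over all genes.

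The median log2 fold change of the histone genes, -0.18, ranged from -0.27 to 0.00 over the 16 alternatives. It was 0.00 with the length trend removed and -0.09 with the GC trend removed. Without WT replicate 1 it was -0.27, and without WT replicate 2 it was -0.05. Many fitted values changed sign. With the length trend removed, 27 of 58 histone genes were below 0, against 50 of 60 in the main fit. Those that changed sign included Hist1h1a at 0.06, Hist1h1b at 0.07, Hist1h1c at 0.00, Hist1h1e at 0.08, Hist1h2bb at 0.00, Hist1h2bn at 0.07 and Hist2h2ac at 0.07. With limma-voom, Hist1h2ac was at 0.22 and Hist1h2al at 2.40. With 1 library left out, the range was -0.13 to 0.01 for Hist1h1e, -0.98 to 0.04 for Hist1h1t, -1.30 to 1.37 for Hist1h2ac, -2.05 to 5.29 for Hist1h2al, -1.23 to 0.18 for Hist1h2bl, -0.36 to 0.04 for Hist1h2bn, -0.57 to 0.96 for Hist1h3b, -0.02 to 0.29 for Hist1h4k, -6.33 to 0.08 for Hist1h4m and -0.08 to 0.02 for Slbp. The causes of these shifts were not tested. The median standard error of the 60 tested histone genes was 0.13 on the log2 scale; how depth, near-identical sequence and the spread between pools contribute to it was not tested.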
